A study of Homo sapiens with 10 samples.

Results

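The transcriptome described here is that of EndoC-βH1 cells that received a control siRNA and no knockdown, measured in 5 of the 10 libraries of the series. The libraries were chosen by their labels alone, as those titled control siRNA with preparation numbers 1 to 5, and no measured value entered the choice. EndoC-βH1 is an insulin-producing human beta cell line. The series was made to compare such control cells with cells in which the splicing factor SRp55 (gene SRSF6) had been silenced, and the silenced cells are not used here. The labels used here give no time point or dose for the siRNA. The line was grown on coated plates in DMEM, polyadenylated RNA was isolated with a column kit that favours molecules over 200 bases, and fragments of about 200 base pairs were sequenced on an Illumina HiSeq 2000. The series calls the preparations independent, but all of them come from a single established line, so the spread between them is that of cultures and libraries and not of people. As background, the line was derived from human fetal pancreas with a viral large T antigen driven by the insulin promoter and with human telomerase, and it therefore divides in culture, unlike most adult beta cells.

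A beta cell makes preproinsulin, folds and cleaves it in the secretory granule with prohormone convertases and carboxypeptidase E, and stores it as crystals that hold zinc. Glucose enters through glucose transporters, is phosphorylated and metabolised in glycolysis and mitochondria, and the resulting ATP closes the potassium channel built from KCNJ11 and ABCC8, which opens calcium channels and releases the granules. Transcription factors such as PDX1, NKX6-1 and MAFA hold the cell in this state, and a set of genes that are common in other tissues, the disallowed genes, is kept low.

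The level of a gene is given here as the sum of the deposited RPKM values of its transcripts (read number scaled to the length of the transcript and to the size of the library), so levels of different genes can be compared per length. Values are the mean ± SD of the 5 libraries, numbered 1 to 5 as in the labels. The libraries held between 61921258 and 159167519 reads assigned to transcripts, with library 2 the shallowest and library 4 the deepest. These were 74.2 to 90.9% of the read total that the RPKM values imply. The sum of RPKM over all genes ran from 367648 in library 5 to 540392 in library 4. The logarithms of the levels correlated between any pair of libraries with a Pearson's r of 0.964 to 0.980 across 12624 genes, which are not independent replicates. The lowest and the next lowest of these pairs, 3 with 4 and 2 with 4, both involved library 4. Library 4 stood apart from the others in holding higher RPKM of genes with a short RPKM-weighted length. To a smaller degree library 1 did so at 500 to 1000 bases, but not below 500 bases. The labels give no sequencing batch or date. No gene above 1 RPKM had identical values in any pair of libraries.

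Of 26346 genes listed in each file, 12624 reached a mean of at least 1 RPKM, the minimum used here to call a gene detected. They included 11910 of 18579 protein-coding genes (64.1%) and 358 of 6227 long non-coding RNA genes (5.75%). The 64.1% is the share to set beside each number of detected list genes given below. A further 6452 genes had 0 reads in every library, 2189 of them protein-coding. That 0 cannot be read as absence for every gene, because all 13 protein-coding genes of the mitochondrial genome, which every cell uses, were listed at 0 reads as well. The median detected gene had 13.7 RPKM, 705 genes had a mean of at least 100 RPKM, and 18 had at least 1000 RPKM.

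The regions upstream of CHGA, the gene with the highest level, and of the islet hormone genes INS, SST and IAPP are shown first, since these genes carry the description that follows. They are the 250 bases before the start site in RefSeq's GRCh38.p14 promoter windows, 5′ to 3′ on the strand of the gene, and all 4 genes matched by symbol. IAPP had 2 windows, and the one at the start of its most abundant transcript was taken. Capitals mark TAAT, the core of homeodomain sites such as those of PDX1 and NKX6-1, CANNTG, the E-box that NEUROD1 and its partners bind, and TGACGTCA, the cyclic AMP response element, each searched on both strands.
CHGA, chr14:92922900-92923149, plus strand: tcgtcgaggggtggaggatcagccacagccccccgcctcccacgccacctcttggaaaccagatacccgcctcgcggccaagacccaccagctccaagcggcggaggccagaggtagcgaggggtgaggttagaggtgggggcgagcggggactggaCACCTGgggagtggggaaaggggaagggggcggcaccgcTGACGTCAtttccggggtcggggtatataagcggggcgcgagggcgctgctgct
INS, chr11:2161210-2161459, minus strand: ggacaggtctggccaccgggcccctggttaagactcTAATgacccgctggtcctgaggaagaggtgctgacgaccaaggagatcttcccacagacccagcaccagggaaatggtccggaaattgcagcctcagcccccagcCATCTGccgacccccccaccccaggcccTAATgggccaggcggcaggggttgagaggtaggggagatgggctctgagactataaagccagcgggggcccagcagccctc
SST, chr3:187670395-187670644, minus strand: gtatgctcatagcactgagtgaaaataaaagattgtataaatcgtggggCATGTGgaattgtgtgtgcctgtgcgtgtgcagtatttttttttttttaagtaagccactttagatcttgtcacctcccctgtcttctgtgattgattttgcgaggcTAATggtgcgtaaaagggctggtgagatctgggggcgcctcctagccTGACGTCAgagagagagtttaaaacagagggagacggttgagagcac
IAPP, chr12:21372652-21372901, plus strand: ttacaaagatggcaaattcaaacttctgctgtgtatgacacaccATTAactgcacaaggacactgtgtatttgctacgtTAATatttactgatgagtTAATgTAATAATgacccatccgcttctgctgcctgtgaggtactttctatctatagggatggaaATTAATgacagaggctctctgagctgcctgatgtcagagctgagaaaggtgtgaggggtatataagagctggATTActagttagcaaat
The CHGA and SST windows each held TGACGTCA once, a run of letters present in 1.65% of 35116 windows of this length. The INS window held TAAT 2 times and CANNTG once. The IAPP window held TAAT 8 times, where matches on opposite strands that overlap are each counted, and no CANNTG. Of all windows 47.4% held TAAT and 61.8% held CANNTG, so their presence alone does not set these promoters apart. Matches are a description of the letters and not of binding.

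With transcripts summed by gene, the gene with the highest mean level in the control cells was not a hormone but chromogranin A. CHGA (GRCh37, chromosome 14, 93389425 to 93401638, plus strand) encodes the acidic protein that condenses the contents of secretory granules. It had 13443, 8681, 8075, 11606 and 9466 RPKM in libraries 1 to 5 (10254 ± 2227 RPKM). INS (chromosome 11, 2181009 to 2182571, minus strand), the gene of preproinsulin, came second with 5839, 5296, 4237, 12705 and 4909 RPKM (6597 ± 3464 RPKM). Library 4 stood far above the other libraries for INS, and it was the only library in which INS exceeded CHGA. The ratio of CHGA to INS was 2.30, 1.64, 1.91, 0.913 and 1.93 in libraries 1 to 5. As single transcripts, INS-201 had a mean of 5810 ± 2932 RPKM and CHGA-201 of 5701 ± 849 RPKM. INS-201 was the higher of these in library 4 only. Without library 4 the mean level of INS was 5070 RPKM. On the RPM scale, where the reads of a gene are summed and scaled to 1000000 assigned reads of the library and not to transcript length, INS had 6747 in library 4 against 2588 to 3406 in the others, so the library was high on both scales. INS alone held 1.47 ± 0.506% of the summed RPKM, from 1.08% in library 3 to 2.35% in library 4.

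Behind these 2 genes the order was steady at first and then blurred. EEF1A1, a translation elongation factor, had 3862 ± 660 RPKM. GNAS, which encodes the stimulatory G protein subunit that couples incretin receptors to cyclic AMP, had 3284 ± 550 RPKM. CLU, a secreted chaperone, had 2146 ± 472 RPKM. Each of these lay above the next in all 5 libraries. TTR, the thyroxine carrier transthyretin, which islet cells also express, had 2504, 1119, 1215, 2524 and 1139 RPKM (1700 ± 744 RPKM). Libraries 1 and 4 formed a high pair and the other libraries a low group with no value between them, and in RPM the same pair was high (2751 and 2656 against 1375 to 1469). From here the neighbours were not separated: TTR exceeded FTL (ferritin light chain, 1582 ± 201 RPKM) in 2 of 5 libraries. CPE, carboxypeptidase E, had 1295 ± 194 RPKM and lay below FTL in all 5. Others among the 20 most abundant genes were TMSB4X, RPL41, B2M, UBB, GAPDH, RPS24, TPT1, ACTG1, MYL6, PPIA and RPL13A, between 966 and 1270 RPKM. Of the 20 genes, 17 were highest in library 4 and 3 in library 1, and 12 had an RPKM-weighted transcript length under 1000 bases. Several of them (EEF1A1, FTL, GAPDH, ACTG1, PPIA and the ribosomal protein genes) have many near-identical processed pseudogenes, and how the reads of such copies were divided is not known, so their levels are uncertain.

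**Figure D1:**
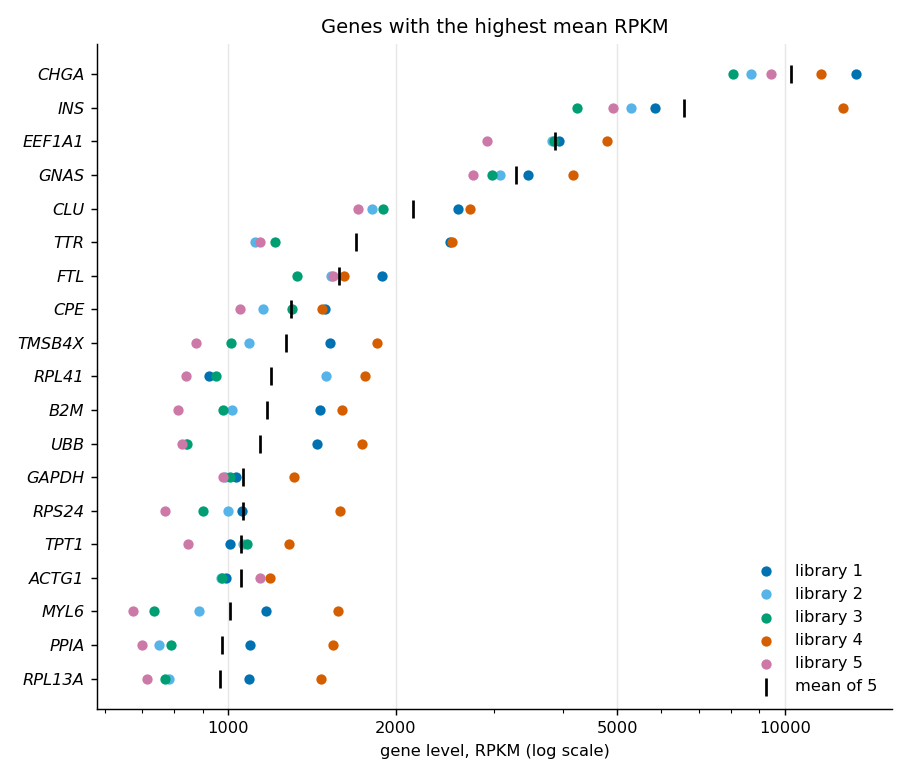
Level in RPKM on a log axis of 19 of the 20 genes with the highest mean, with 1 point for each of the 5 control siRNA libraries and a bar for the mean. INS lies at 12705 RPKM in library 4 and between 4237 and 5839 RPKM in the others, while CHGA lies between 8075 and 13443 RPKM.

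The 10 most abundant genes together held 7.59 ± 0.593% of the summed RPKM and the 100 most abundant 20.8 ± 1.27%. Among those 100 were 44 genes of cytoplasmic ribosomal proteins, 9 of the housekeeping list, 4 of the secretory granule list and 1 islet hormone. All 85 cytoplasmic ribosomal protein genes held 8.60, 9.16, 8.09, 10.8 and 7.82% in libraries 1 to 5, with library 4 the highest. No regulator of beta cell identity was among the 100.

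Of 15 islet and gut hormones on the list, 6 were detected. INS was followed by SST (chromosome 3, 187386694 to 187388187, minus strand), which encodes somatostatin, the hormone of delta cells, with 240, 97.3, 103, 55.3 and 53.2 RPKM (110 ± 76.5 RPKM). Library 1 held the highest SST level, libraries 2 and 3 were intermediate and libraries 4 and 5 lowest. SST has a single transcript in the files, so its level cannot depend on how reads were divided among isoforms, and its RPM values showed the same order of library 1 over the others (170 against 37.6 to 79.2). Library 1 was thus the highest for SST while library 4 was the highest for INS, and INS exceeded SST 24.3 times in library 1 and 230 times in library 4. Gastrin, GAST, a hormone of the stomach and of the fetal pancreas, had 64.7, 66.1, 38.8, 30.3 and 24.3 RPKM. Its libraries 1 and 2 lay above the other libraries. JUP overlaps it on the opposite strand, and without strand information reads of the pair cannot be told apart where they overlap. Other genes named below are overlapped in the same way, among them PAX6 (by RCN1), SYN1 (by ARAF and TIMP1) and FAU (by MRPL49).

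IAPP, the amyloid peptide that beta cells release with insulin, had 29.7, 20.3, 26.2, 52.9 and 45.3 RPKM (34.9 ± 13.7 RPKM), with libraries 4 and 5 the highest. INS exceeded IAPP by a factor between 108 in library 5 and 260 in library 2. The order of GAST and IAPP was not settled, since GAST was higher in 3 of 5 libraries. UCN3, urocortin 3, a marker of mature beta cells, had 19.7 ± 2.61 RPKM and the narrowest spread of the detected hormones (coefficient of variation, CV, the SD in percent of the mean, 13.3%). NPY, neuropeptide Y, was the last at 4.01 ± 1.94 RPKM.

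The other 9 hormones stayed under 1 RPKM. Glucagon, GCG, the alpha cell hormone, had 0.177, 0.0380, 0.0866, 0.154 and 0.110 RPKM, so low in each library that none reached 1 RPKM. ADCYAP1 had a mean of 0.422 RPKM, GHRL (ghrelin) 0.403, PYY 0.191, GAL 0.0351, CCK 0.0255 and TRH 0.00172 RPKM. PPY, the pancreatic polypeptide, and VIP were listed at 0 in all 5 libraries. The median CV of the 6 detected hormones was 45.9%, against 17.4% over all 12624 detected genes.

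The machinery of the secretory granule was among the most abundant gene groups, with 27 of 28 listed genes detected, 16 of them at 100 RPKM or more. It held 3.72 ± 0.408% of the summed RPKM, of which CHGA made up the larger part (2.36 ± 0.344%). After CHGA and CPE came PCSK1N, the inhibitor of prohormone convertases known as proSAAS, with 846, 614, 561, 854 and 615 RPKM. Libraries 1 and 4 were again the high pair. ERO1B, the oxidase that forms disulphide bonds in proinsulin, had 646, 607, 579, 559 and 577 RPKM (594 ± 33.9 RPKM). Its CV of 5.71% was the lowest of the list in RPKM. In RPM the CV of ERO1B was 10.1%, above the 5.91% of VAMP2 on the same list. PCSK2, the second prohormone convertase, had 408 ± 56.7 RPKM, while PCSK1 had 98.4 ± 6.49 RPKM. PCSK2 exceeded PCSK1 by 4.76, 4.48, 4.15, 3.64 and 3.70 times in libraries 1 to 5. SCG3 and CHGB, granins that sort cargo into granules, had 302 ± 31.3 and 297 ± 35.3 RPKM, and IGF2 295 ± 32.6 RPKM. The order of these 3 varied between libraries. SLC30A8, the transporter that loads zinc into insulin granules, had 77.3 ± 11.4 RPKM. SYTL4 (granuphilin), which docks granules, was the only listed gene under 1 RPKM, with a mean of 0.00191 RPKM and a value above 0 in libraries 1 and 5 only.

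Regulators of beta cell identity were expressed at moderate levels. Of 45 listed genes, 44 were found by symbol, 34 were detected and 4 reached 100 RPKM, with a median CV of 15.2% for those detected in RPKM and 12.9% in RPM, against 17.4% and 10.9% over all detected genes. INSM1, a zinc finger factor of endocrine cells, led the list at 167, 148, 173, 222 and 209 RPKM. PAX6, which activates islet hormone genes, had 126 ± 16.9 RPKM. MLXIPL (ChREBP), the glucose-responsive factor, had 202, 75.7, 76.6, 114 and 90.5 RPKM. Its library 1 lay far above the others in RPKM, while its RPM values ran only from 144 to 233. PDX1 (chromosome 13, 28494157 to 28500368, plus strand), which binds the insulin promoter, had 104, 89.1, 93.0, 110 and 103 RPKM (99.8 ± 8.63 RPKM) from a single transcript, and the 5 values lay close together. NEUROD1 had 62.6 ± 5.43 RPKM, ISL1 52.0 ± 2.54 RPKM and TSHZ1 43 ± 3.35 RPKM.

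MAFA, the factor of glucose-responsive beta cells, had 15.9, 15.5, 16.8, 25.3 and 25.7 RPKM. NKX6-1, another defining beta cell factor, had 14.8, 19.1, 23.0, 31.2 and 29.3 RPKM. MAFA and NKX6-1 were both highest in libraries 4 and 5, and both are among the 10 beta cell markers on the list, of which all but ADCYAP1 were detected.

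Of the identity list, 10 genes stayed under 1 RPKM. They included factors of other islet and pancreatic lineages: PAX4 had 0.451 RPKM, HES1 0.228 RPKM, LMX1A 0.183 RPKM, and SOX9, of ducts and progenitors, 0.130 RPKM. PTF1A, of acinar cells, had 0.00400 RPKM, ONECUT1 0.00307 RPKM and LMX1B 0.000589 RPKM. GATA6 and POU3F4 were listed at 0 in all 5 libraries. GATA4 had 39.4 ± 4.37 RPKM and NEUROG3, the factor of endocrine progenitors, 3.22 ± 0.585 RPKM. Both fell outside the rule for named genes and were chosen after their values were seen.

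**Figure D2:**
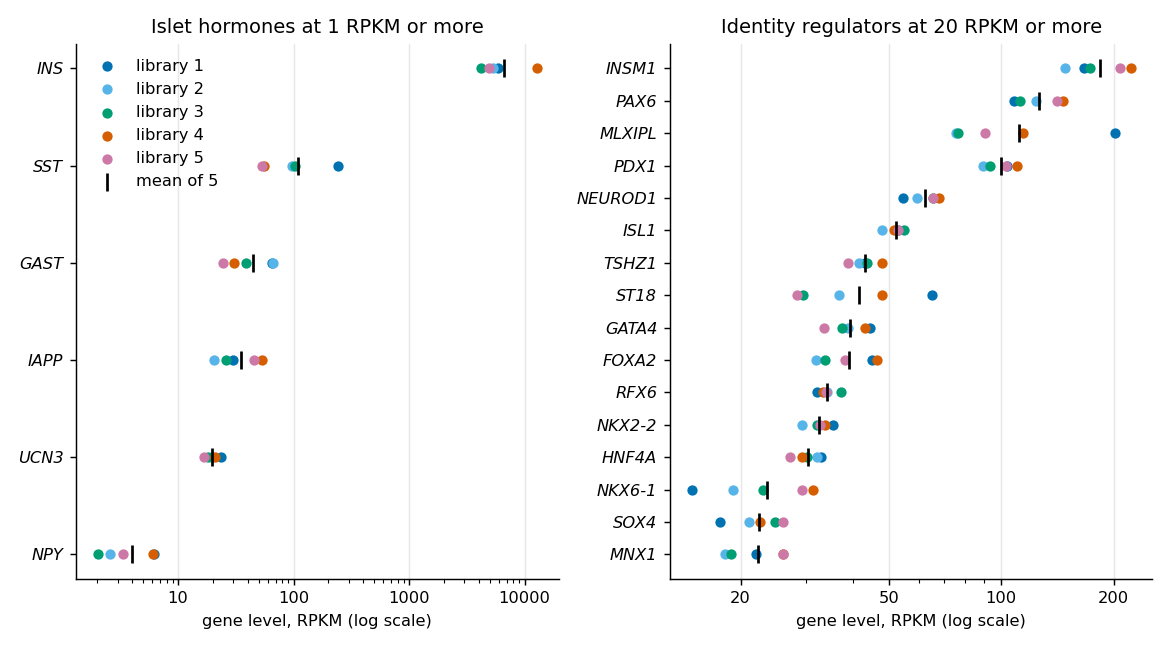
Level in RPKM on log axes of the 6 islet hormones at 1 RPKM or more (left) and of named identity regulators at 20 RPKM or more (right), with 1 point per library and a bar for the mean. The SST points spread from 53.2 to 240 RPKM, whereas PDX1 spans 89.1 to 110 RPKM.

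Genes of glucose sensing and excitability were represented by 35 detected members of 41. ATP2A3 and ATP2A2, calcium pumps of the endoplasmic reticulum, had 316 ± 17.5 and 144 ± 9.57 RPKM, and PKM, the last enzyme of glycolysis, 309 ± 45.6 RPKM. The sulphonylurea receptor ABCC8 had 157, 111, 93.7, 201 and 119 RPKM. Library 4 was the highest and library 3 the lowest, although the CV of its RPM values was only 10.5%, against 31.4% in RPKM. KCNJ11, the pore of the same channel, was lower than ABCC8 in every library, by 3.07 to 4.35 times in RPKM. In RPM ABCC8 had 225 to 296 and KCNJ11 103 to 123, so the order held and the gap was smaller. The size of the RPKM ratio depends on how reads were divided among the 19 listed transcripts of ABCC8. KCNK16, a potassium channel of islets, had 105 ± 37.4 RPKM, PDHA1, a subunit of pyruvate dehydrogenase, 93.4 ± 26.4 RPKM, and FFAR1, a fatty acid receptor that enhances insulin release, 73.3 ± 9.92 RPKM.

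The hexokinases of high affinity were near 0: HK1 had 0.112 RPKM, HK3 0.0462 RPKM and HK2 0.0136 RPKM in the mean. Of the glucose transporters, SLC2A1 had 35.3, 27.2, 23.8, 60.0 and 20.6 RPKM and SLC2A2 2.99, 3.88, 3.59, 4.39 and 3.03 RPKM. SLC2A1 exceeded SLC2A2 by 6.64 to 13.7 times, with the ratio highest in libraries 4 and 1, and SLC2A3 was listed at 0. The glucose transporters and KCNJ11 were singled out after their values were seen. SCN3A, a sodium channel subunit, had 0.760 RPKM. G6PC2, the islet glucose-6-phosphatase, had 10.1, 9.51, 4.22, 32.5 and 6.17 RPKM, so that library 4 stood above the others. Its RPM values were 59.4 in library 4 against 11.5 to 25.3 in the others. SPC25 overlaps G6PC2 on the opposite strand.

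The disallowed genes were not uniformly low. Of 24 listed, 17 were detected, 10 reached 10 RPKM and 2 reached 100 RPKM. Among all protein-coding genes 64.1% were detected, so the number detected does not set this list apart. FCGRT, the neonatal Fc receptor, had 229, 201, 182, 230 and 180 RPKM and was the highest of them. LDHA, lactate dehydrogenase A, had 155, 156, 140, 333 and 104 RPKM (178 ± 89.5 RPKM). Library 4 was the highest for LDHA, and without it the level of LDHA was 138.7 RPKM. Its RPM values were 474 in library 4 against 226 to 308. SLC16A1, the lactate and pyruvate carrier that is the other classic member, had 16.1, 16.9, 19.6, 16.9 and 15.6 RPKM, close together and well below LDHA. LMO4 had 77.8 ± 10.3 RPKM, OAT 29.2 ± 8.25 RPKM, CD302 29.2 ± 3.51 RPKM, CAT (catalase) 26.5 ± 2.08 RPKM and ACOT7 14.1 ± 2.30 RPKM. PDGFRA had 0.203, 0.104, 1.58, 0.201 and 0.132 RPKM, so that library 3 alone exceeded 1 RPKM and raised its mean to 0.445 RPKM. The other members with a mean under 1 RPKM were ARHGDIB (0.357 RPKM), HK1, MGST1 (0.0981 RPKM), YAP1 (0.0939 RPKM), HK2 and TGM2 (0.00467 RPKM).

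Genes of the cell cycle were well expressed, with 28 of 31 detected and 24 at 10 RPKM or more. PCNA, the clamp of replicating DNA, had 251, 254, 267, 290 and 231 RPKM. RRM2, the inducible subunit of ribonucleotide reductase, had 178 ± 35.6 RPKM, with library 1 the lowest at 131 RPKM. CDK4 had 136 ± 50.8 RPKM, MCM7 127 ± 41.3 RPKM, CDK1 112 ± 18.9 RPKM, TOP2A 89.0 ± 15.3 RPKM and MCM5 67.7 ± 11.4 RPKM. CDKN1C, an inhibitor of cyclin-dependent kinases, had 71.8 ± 12.1 RPKM. The kinases CDK4 and CDK6 were unequal, as CDK6 had 0.521 RPKM and CDK4 exceeded it at least 181 times in each library. The D cyclins were also unequal. CCND1 had 0.00790 RPKM in the mean, CCND2 was listed at 0 and CCND3, chosen after its value was seen, had 30.5 ± 5.17 RPKM. LTO1 overlaps CCND1 on the opposite strand.

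All 35 housekeeping genes were detected, and their median CV of 15.7% was close to the 17.4% of all detected genes. ACTB, beta-actin, had 655, 535, 599, 595 and 581 RPKM (593 ± 43.3 RPKM), and GAPDH had 1033, 987, 1006, 1316 and 978 RPKM. Library 4 stood above the others for GAPDH. The CV of ACTB was below that of GAPDH in RPKM (7.30 against 13.4%) and above it in RPM (9.44 against 7.15%), so their order by spread was not settled. RPS18 and B2M, which have short transcripts, varied more, with CVs of 32.9 and 28.8%. EEF1A1, PPIA and RPL13A were also among the 8 highest members. In RPKM the largest CV of the list was 40.4%, that of CHMP2A, and the smallest 6.12%, that of PSMB2. Both were named after their values were seen. In RPM the CV of CHMP2A was 28.4%, below the 31.0% of TFRC on the same list.

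Markers of other cell types were uneven within each list, and many were under 1 RPKM or listed at 0, which is not a proof of absence in these files. Of the 4 endothelial markers found by symbol, CDH5, KDR and PLVAP were listed at 0 and VWF had 0.000259 RPKM in the mean. Of 7 mesenchymal markers only COL1A1 was detected (1.31 ± 0.792 RPKM), VIM was listed at 0, and LUM, COL3A1, COL1A2, THY1 and PDGFRB lay between 0.0169 and 0.0656 RPKM. Of 8 acinar markers, CPA1 (carboxypeptidase A1) had 20.9 ± 4.74 RPKM, while PRSS1, PNLIP, CTRB1, CELA3A and REG1A were listed at 0 and AMY2A had 0.104 RPKM.

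Of the duct markers, KRT19 had 23.7 ± 4.54 RPKM, whereas KRT7 had 0.743, CFTR 0.0323 and SPP1 0.0385 RPKM. MUC1 had 36.0 RPKM in library 4 and at most 3.04 RPKM in the others, and in library 4 a transcript of 177 bases, MUC1-215, held 93.5% of it. Of the immune markers, CD68 had 41.4 ± 5.98 RPKM, CD14 0.800, LYZ 0.0717 and PTPRC 0.00187 RPKM, and CD3E and HLA-DRA were listed at 0. Among hepatocyte markers SERPINA1, alpha-1 antitrypsin, had 657, 612, 596, 368 and 317 RPKM, with libraries 1 to 3 above libraries 4 and 5. APOB (11.2 ± 2.84 RPKM), APOA1 (8.51 ± 3.10 RPKM) and TF (1.06 ± 1.08 RPKM) were detected as well, while ALB had 0.558 and AFP 0.239 RPKM. Thus 4 of the 6 hepatocyte markers reached 1 RPKM, as did 64.1% of all protein-coding genes. Neuronal markers that endocrine cells share were detected in 5 of 7 cases, led by STMN2 (130 ± 21.4 RPKM), TUBB3 (50.1 ± 12 RPKM), MAP2 (49.2 ± 7.46 RPKM) and SYN1 (41.1 ± 6.36 RPKM), with RBFOX3 at 0.695 and GAP43 at 0.904 RPKM.

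For alpha cells, TTR, GC (188 ± 53.9 RPKM), DPP4 (62.9 ± 10.6 RPKM), TM4SF4 (35.2 ± 6.40 RPKM) and IRX2 (12.1 ± 4.55 RPKM) were present but GCG, the defining hormone, was under 1 RPKM in every library. For delta cells, SST and PCSK1 were high, RBP4 had 32.0 ± 10.5 RPKM, LEPR 2.36 ± 0.651 RPKM and HHEX, the defining regulator, 1.06 ± 0.280 RPKM, while GHSR had 0.00188 RPKM. The summed level of the 6 delta cell markers ran from 175 to 394 RPKM. In bulk RNA a few cells with high SST and many cells with low SST cannot be told apart.

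**Figure D3:**
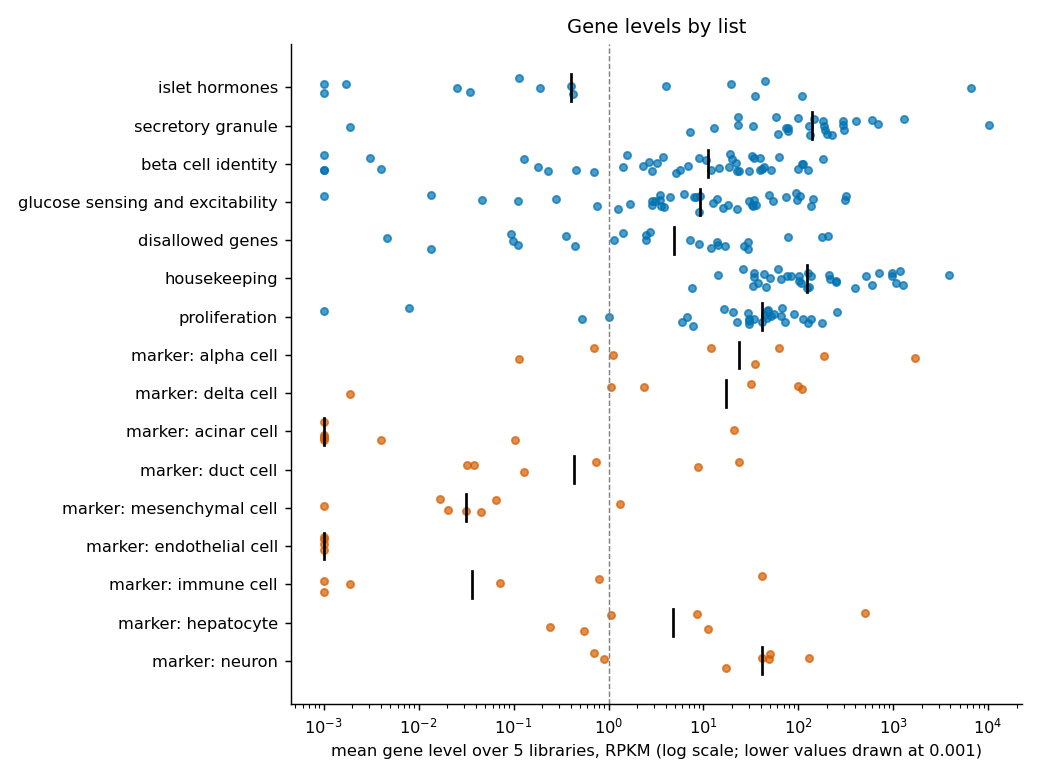
Mean level over the 5 libraries in RPKM on a log axis of every gene of each list, with a black bar at the median of the list and a dashed line at 1 RPKM; blue marks functional lists and orange marks markers of other cell types. Secretory granule genes centre near 140 RPKM and housekeeping genes near 123 RPKM, whereas endothelial and acinar markers lie mostly at the left edge, where values under 0.001 RPKM are drawn.

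By transcript class, with classes from GENCODE 44 matched on transcript identifiers, protein-coding transcripts held 72.8 ± 1.42% of the summed RPKM. Transcripts with a retained intron held 7.85 ± 0.603%, transcripts of coding genes without a defined coding sequence 6.97 ± 0.734%, and targets of nonsense-mediated decay 5.32 ± 0.282%. A further 6.26 ± 0.128% fell to transcripts that had no match, and long non-coding RNA transcripts held 0.706 ± 0.0252%. The share of coding transcripts was lowest in libraries 4 and 1 (71.1 and 71.7%), where retained introns (8.61 and 8.15%) and undefined coding sequences (7.96 and 7.47%) were highest. Measured as reads, which favours long transcripts, the coding share was 80.9 ± 0.931% and the retained intron share 4.62 ± 0.413%.

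The non-coding classes were led by forms of genes already named for their abundance. The highest transcripts of each class are given here for their level, after their values were seen. CHGA-203, without a defined coding sequence, had 4073, 1547, 1428, 3316 and 2789 RPKM and so held 30.3, 17.8, 17.7, 28.6 and 29.5% of CHGA. Among retained introns, ACTG1-211 had 745 ± 99.8 RPKM and EEF1A1-207 616 ± 261 RPKM. PPIA-202 (447 ± 264 RPKM) and B2M-209 (430 ± 205 RPKM) led the targets of nonsense-mediated decay. The classes are those of a later annotation than the files hold, and several of these transcripts overlap the coding form over most of their length, so the reads behind them depend on the unnamed program that divided them.

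Among long non-coding RNA genes MEG3, a maternally expressed imprinted transcript that is abundant in beta cells, had the highest mean with 169, 148, 140, 179 and 257 RPKM. Library 5 stood above the others, and its RPM values were 1075 against 471 to 558. NORAD, a cytoplasmic RNA that binds Pumilio proteins, had 160, 150, 164, 169 and 140 RPKM from a single transcript, and its libraries lay close together. It exceeded MEG3 in libraries 2 and 3, and without library 5 the mean level of NORAD was 160.9 RPKM and the mean level of MEG3 was 159.1 RPKM, so the order of the pair was not settled. SNHG32 had 104 ± 21.6 RPKM, GAS5 74.4 ± 27.8 RPKM, SNHG6 66.8 ± 21.9 RPKM, DSCR8 50.5 ± 18.9 RPKM, SNHG8 45.9 ± 16.2 RPKM and DANCR 42.2 ± 16.9 RPKM. Of these, all but DSCR8 were highest in library 4, as were 82 of the 100 most abundant genes.

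The spread among the 5 preparations was modest for most genes. The median CV was 17.4%, with an interquartile range of 11.2 to 27.6%, and 573 genes (4.54%) exceeded a CV of 50%. In RPM the median CV was 10.9% and 136 genes (1.08%) exceeded 50%. The 935 detected genes with a single listed transcript had a median CV of 12.9% in RPKM and 11.8% in reads, whereas the 11689 genes with several transcripts had 17.8% and 10.8%. The difference between the scales was thus larger in genes with several transcripts, and its cause was not tested.

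Library 4 differed most from the middle of the group. It held 564 genes at more than 2 times the median of the 5 libraries and 31 at less than the median divided by 2. Library 1 followed with 219 and 45 genes, and libraries 2, 3 and 5 had 77 and 102, 42 and 127, and 48 and 110. Counted in RPM, library 4 had 79 and 22 genes and libraries 1, 2, 3 and 5 had 36 and 23, 35 and 43, 17 and 45, and 25 and 30, so on that scale library 1 no longer came after library 4.

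These differences varied with the RPKM-weighted length of a gene, which is not independent of them, since a short transcript that is high in 1 library also shortens this length. Among 1271 genes with an RPKM-weighted length of 500 to 1000 bases, the median log2 difference from the middle library was 0.70 in library 4 and 0.33 in library 1, and -0.03, -0.08 and -0.10 in libraries 2, 3 and 5. Among 998 genes over 5000 bases it was 0.00 in library 4 and 0.03 in library 1. The median CV was 33.9% in the former genes and 12.4% in the latter. Among the 137 genes of up to 500 bases, INS among them, the median difference was 0.51 in library 4. It was 0.00 in library 1 and 0.13 in library 2, so library 1 was not raised there. For genes with a single transcript, whose length is fixed, of 500 to 1000 bases, 124 in number, the shift in library 4 was 0.11 and in library 1 0.10, and the median CV was 17.1%. The high values of library 4 for INS, and of libraries 4 and 1 for TTR, TMSB4X and MYL6, stand beside this pattern, and its part in them was not tested. For INS the values already given hold library 4 above the others in RPM as well.

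**Figure D4:**
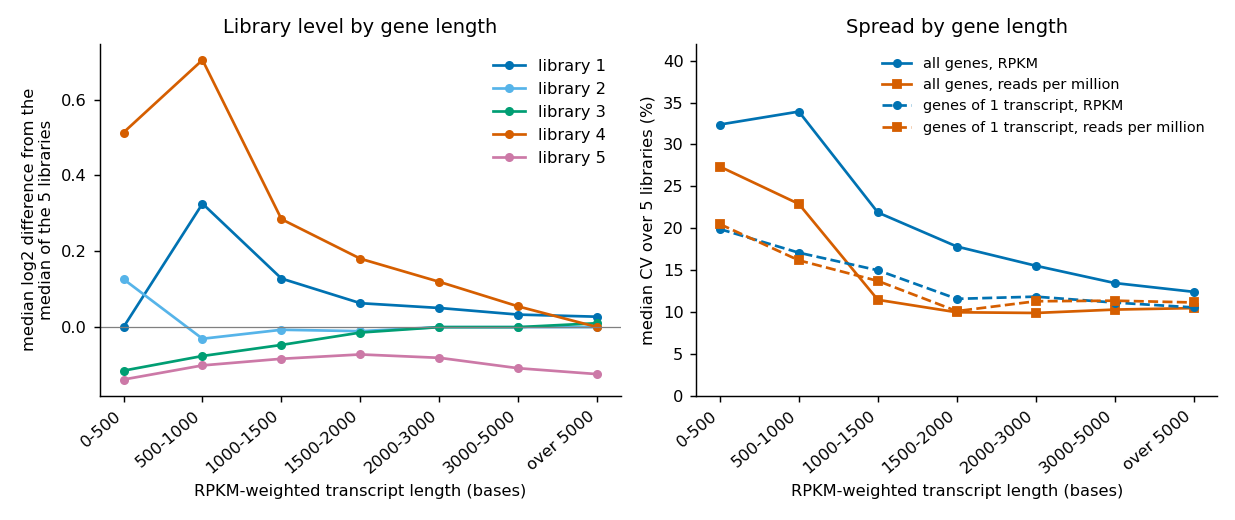
Left, median log2 difference of each library from the median of the 5 libraries, by RPKM-weighted transcript length in bases, over all detected genes. Right, median CV in percent over the 5 libraries by length, in RPKM and in RPM, for all genes and for genes of 1 transcript. Library 4 reaches 0.70 at 500 to 1000 bases and 0.00 over 5000 bases.

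The genes with the largest CV among protein-coding genes at 20 RPKM or more were mostly high in a single library. NCOA1, a steroid receptor coactivator, had 11.2, 16.4, 15.5, 77.4 and 10.3 RPKM (CV 110%). In library 4, NCOA1-207, a transcript of 537 bases without a defined coding sequence, held 88.7% of its RPKM, and its RPM values ran only from 79.3 to 96.7. ITSN2, an endocytic scaffold, had 15.7, 17.6, 17.1, 80.2 and 11.3 RPKM (CV 102%), with ITSN2-207, a target of nonsense-mediated decay, holding 93.3% in library 4 and 0% in each other library. PIK3C3, the class III phosphoinositide kinase, was high in library 1 with 62.0 RPKM against 8.41 to 17.8 RPKM. Its RPM was 116.0 there against 87.7 to 111.4 in the others. STK40, EIF2D and TBL1XR1 were high in library 4 in the same way, at 79.8, 69.9 and 61.0 RPKM against at most 18.4 RPKM in any other library for any of them, and their CVs in RPM were 15.8, 25.7 and 7.97%. BCKDHA was high in libraries 1 and 4 (48.3 and 54.0 RPKM against 9.53 to 15.0 RPKM) with BCKDHA-207, a transcript of 562 bases, holding 86.7 and 84.0% there. Its RPM was also highest in these libraries (40.8 and 46.0 against 21.2 to 27.7).

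Others among these 10 genes varied in reads too. HOOK2 had 131 RPKM in library 1 and 26.3 to 39.9 RPKM in the others, with a CV of 57.3% in RPM. RNASEH2A, MAST1 and JUNB overlap HOOK2 on the opposite strand. DNAJC4 had 57.9 RPKM in library 4 and 12.2 to 18.7 RPKM elsewhere (50.9% on reads). SPINK1, a trypsin inhibitor, had 12.8, 8.68, 10.7, 46.4 and 23.3 RPKM, with a CV of 76.6% in RPKM and 53.0% on reads.

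The smallest CVs belonged to SEPTIN5 (0.799%), GSS (1.65%), SURF4 (1.70%), MME (1.84%) and UBXN4 (1.98%). SEPTIN5, a filament protein of vesicle release, had 58.3, 59.3, 58.4, 58.2 and 58.2 RPKM. This narrowness did not carry over to the other scale, where the CVs of these 5 genes were 15.5, 7.93, 7.04, 9.21 and 11.8%.

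Dominant isoforms were compared in 9254 genes whose mean reached 5 RPKM and that had several listed transcripts. The transcript with the highest RPKM was the same in all 5 libraries in 4773 genes (51.6%), while 2 different transcripts took that place in 2802 genes and 3 or more in the rest. The top transcript held a median of 51.3% of its gene. Its share moved by a median of 21.7 percentage points between the lowest and the highest library, and by more than 50 points in 1428 genes (15.4%). Of 9069 protein-coding genes, the top transcript was of the protein-coding class in 7410 (81.7%), without a defined coding sequence in 394, a target of nonsense-mediated decay in 370 and a retained intron in 369.

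INS and CHGA each had the same leading isoform in all 5 libraries. INS-201, a transcript of 503 bases, held 87.5, 95.5, 89.9, 86.2 and 83.9% of INS, and INS-205, of 297 bases, held 8.89, 2.28, 7.58, 11.4 and 12.3%. CHGA-201 led CHGA in every library, but with 48.2, 70.0, 70.8, 51.5 and 45.0%, so libraries 2 and 3 lay above the other 3. In PCSK2 the form PCSK2-205 held 52.6 to 66.7%, PCSK1-201 held 87.5 to 95.4% of PCSK1, and TTR-201 all but a trace of TTR. INS-IGF2, a readthrough gene that overlaps INS and was named for that reason, had 2.66, 1.74, 1.16, 41.1 and 7.50 RPKM and was highest in library 4 as INS was.

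Among genes of the lists, MUC1, TBP and AURKA were among the 5 with the largest movement of the top transcript. TBP-201 held 60.3, 70.0, 8.33, 64.7 and 45.4% of TBP, with library 3 low. AURKA-207 held 74.9, 14.3, 68.3, 18.8 and 58.8% of AURKA, a kinase of mitosis, with libraries 2 and 4 low.

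Outside the lists the changes at 20 RPKM or more were near complete. PARM1-201, of 5011 bases, held 96.2, 92.6, 1.36, 95.9 and 1.99% of PARM1, and PARM1-202, of 4308 bases, held the rest, so that libraries 3 and 5 had the other form. The level of PARM1 itself was 24.4, 23.5, 29.7, 29.2 and 26.8 RPKM and hardly moved. SMIM20-201 held 0.746% of SMIM20 in library 1 and 92.5 to 99.9% in the others. POLD2-202 held 93.9, 0.592, 93.5, 2.22 and 94.5% of POLD2, a subunit of DNA polymerase delta. In libraries 2 and 4, where this form was low, POLD2 had 55.6 and 106 RPKM against 28.6 to 34.4 RPKM. The RPM values of POLD2 were 72.9, 77.4, 74.4, 110.6 and 96.8, so on that scale library 2 lay within the range of libraries 1, 3 and 5. FARSA-207 held 88.7 and 93.6% of FARSA in libraries 1 and 4 and 0% in the other 3. FAU, DDX24, INO80B and DOLPP1 had ranges of 94.4, 94.3, 93.4 and 93.0 percentage points. The libraries that had the rarer form were not the same from gene to gene.

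**Figure D5:**
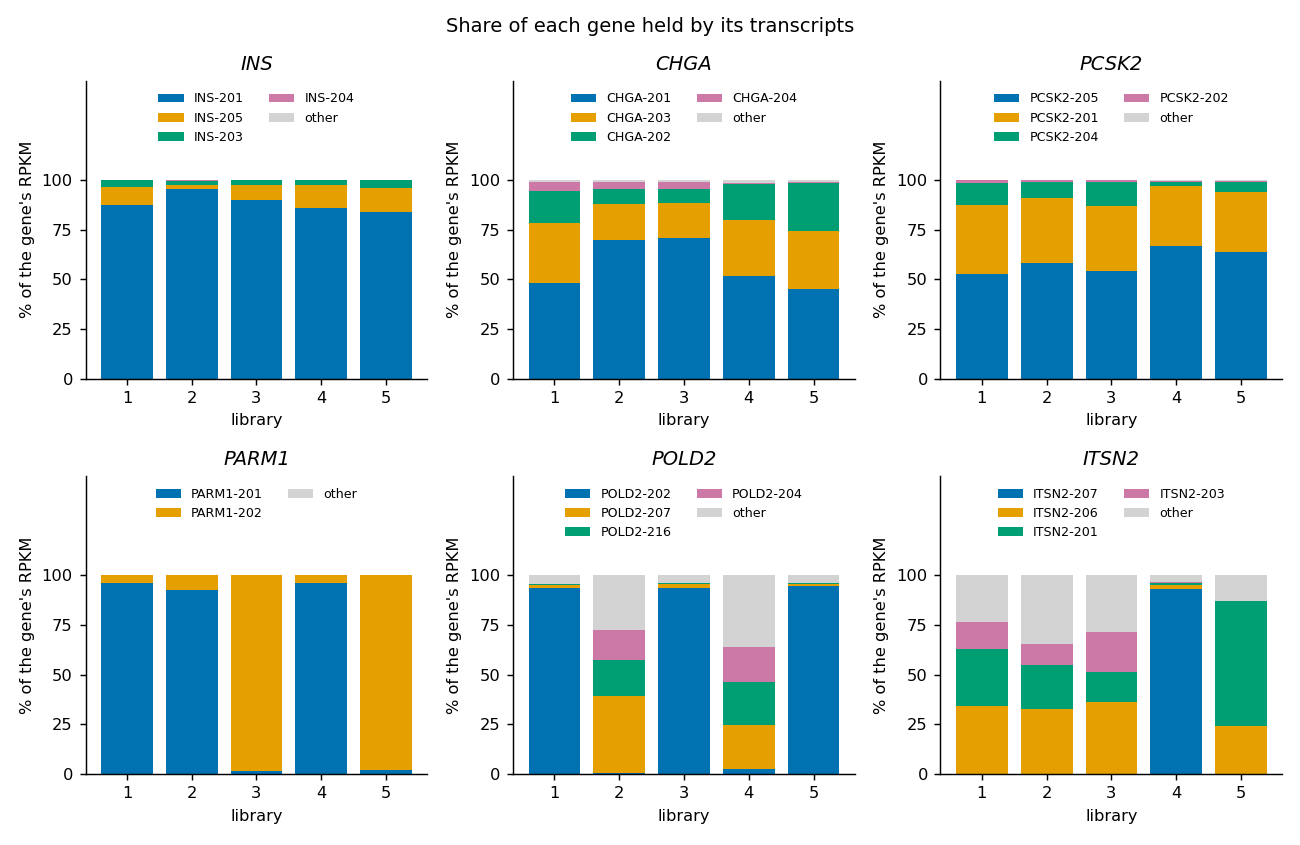
Share in percent of the RPKM of each gene held by its 4 most abundant transcripts in libraries 1 to 5, for INS, CHGA, PCSK2, PARM1, POLD2 and ITSN2; grey is the sum of all other transcripts. INS-201 holds 83.9 to 95.5% throughout, whereas PARM1-201 holds 1.36 and 1.99% in libraries 3 and 5 and over 92% in the others.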

How the data were processed

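The 5 control siRNA libraries of the EndoC-βH1 line were analysed. The submitters' processing notes name TopHat and the builds GRCh37 and hg19. Not given in the sources used here were the release of the aligner and of the annotation, the tool behind the transcript values, and whether strand was used. The deposited files hold an RPKM value and an estimated read count for each of 155130 transcripts, both made by the authors. Estimated counts entered the reads per library, RPM and the values drawn from it, shares of reads, and the leading transcript by reads. No count test was run. Gene level was the sum of transcript RPKM. RPM was the summed estimated reads of a gene scaled to 1000000 assigned reads of its library. GENCODE 44, matched by identifier without version, gave symbols to 94.96% of genes and classes to 92.42% of transcripts, and its models can differ from those of the files.

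Depth was 61921258 to 159167519 assigned reads. With 5 preparations of 1 line the SD measures the spread between these samples only. No test and no comparison with silenced cells was made. The control libraries were taken by label, but the decision to describe them and the gene lists were made with earlier results of these data known. Genes named were the 20 highest, the hormones, the 8 highest of each list and its members under 1 RPKM, the 10 largest and 5 smallest CVs at 20 RPKM or more, and the isoforms with the largest change of share; exceptions are stated. Alternatives were other minimums, other scalings, reads in place of RPKM, transcripts under 200 bases left out and each library left out. Python 3.11.15 with pandas 2.3.3, numpy 2.4.6 and matplotlib 3.10.9 was used, and the code was tested on simulated data. Some genes covered by the naming rule are not reported here.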

Additional observations from a re-analysis of the deposited data

Results flagged for a closer look

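A gene was marked where the highest or lowest of the 5 libraries lay so far from the nearest other that the gap exceeded 0.71 of the whole range. Chance flags about 1 in 20 groups of 5 independent normal values, and the levels here need not be distributed in that way. The genes also include some named for a large CV or isoform change, so their count cannot be set against that rate. Of 248 named genes 29 were marked, 22 in library 4, 6 in library 1 and 1 in library 2, and 8 of them were marked in RPM as well. The share of INS in the summed RPKM was marked too, at 2.35% in library 4.

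Among genes of beta cell function, library 4 stood high for INS (12705.5 RPKM), INS-IGF2 (41.1 RPKM), G6PC2 (32.5 RPKM), LDHA (333 RPKM), PFKP, the platelet form of phosphofructokinase (15.2 RPKM), and SIX2, a regulator of beta cell maturation (3.07 RPKM). Library 1 stood high for SST (240 RPKM) and for PC, pyruvate carboxylase (39.9 RPKM against 10.9 to 17.3 RPKM). INS, INS-IGF2, G6PC2 and PC were marked in RPM as well. LDHA, PFKP, SIX2 and SST were not marked in RPM, though each was highest in the same library there.

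Among genes of the cell cycle, library 4 was high in RPKM for TYMS (76.4 RPKM), BIRC5 (67.9 RPKM) and PLK1 (40.6 RPKM), none of them marked in RPM, where PLK1 in library 4 lay just above library 5. The cell cycle list held 0.392% of the summed RPKM in library 4 and 0.336 to 0.415% in the others. By contrast, library 1 was low for CCNA2, cyclin A2 (15.3 RPKM against 23.7 to 25.4 RPKM). Housekeeping members high in library 4 were GAPDH (1316 RPKM) and TUBB (732 RPKM). Neither of these nor CCNA2 was marked in RPM, where TUBB in library 4 lay just above library 5 (1357 against 1332 RPM).

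Markers of other cells high in library 4 were MUC1 (36.0 RPKM), IRX2 (20.2 RPKM) and TF, transferrin (2.97 RPKM), and APOA1 was high in library 1 (13.9 RPKM). Of these markers only TF was marked in RPM. Genes named for their spread or isoforms were high in RPKM in library 4 in the cases of ITSN2 (80.2 RPKM), STK40 (79.8 RPKM), NCOA1 (77.4 RPKM), EIF2D (69.9 RPKM), TBL1XR1 (61.0 RPKM), DNAJC4 (57.9 RPKM), DDX24 (56.8 RPKM) and FAU (232 RPKM). In RPM only DNAJC4 and FAU of these were marked, NCOA1 and TBL1XR1 in library 4 lay within the range of the others, and DDX24 was lowest there (149.8 RPM against 153.9 to 175.1 RPM). HOOK2 (131 RPKM) and PIK3C3 (62.0 RPKM) were high in library 1, and only HOOK2 of this pair was marked in RPM. SEPTIN5 was high in library 2 at 59.3 RPKM, within the narrowest range of all named genes by CV. In RPM that library lay within the range of the others for SEPTIN5 (135.9 RPM against 127.6 to 178.4 RPM).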

How the results depend on the processing

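Measured as shares of estimated reads in place of summed RPKM, INS held 0.384%, the top 10 genes 4.95%, the top 100 genes 12.4%, protein-coding transcripts 80.9%, retained introns 4.62%, undefined coding sequences 3.01%, targets of nonsense-mediated decay 3.58% and long non-coding RNA 0.568%, each moving by more than the SD between libraries. The median CV was 10.9% in RPM, 15.0% with median-of-ratios size factors, 25.4% with no minimum and 15.2 to 17.7% with a library left out. Equal summed RPKM (16.3%) and the omission of transcripts under 200 bases (17.4%), both chosen for the spread after seeing the data, moved it less. Between 9716 and 13529 genes were detected under other minimums. The same transcript led in all libraries in 63.0% of genes by reads and in 54.2 to 57.2% with a library left out. Of 1986 alternative gene levels 1982 stayed within 1 SD. The exceptions were SURF4, SEPTIN5, GSS and MME under equal summed RPKM. Where a library was left out, this outcome was fixed in advance. Such an omission cannot move a mean by as much as the SD of the same libraries. Depth limits the lowest genes, since GCG rested on 2 to 21.7 estimated reads per library. No paired analysis was possible because only 1 group was used.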
